A study of Mus musculus with 2 samples.

Results

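Translation initiation and elongation factors were examined in tissue from mouse embryos at embryonic day 10.5, taken under and over the dorsal aorta. The genes were chosen by symbol: all features whose symbol begins with Eif or Eef and a digit, leaving out the Y-linked Eif2s3y and 2 pseudogenes, which gave 62 of the 24675 features with a symbol. Of these, 61 are protein-coding and 1, Eif2c5, is annotated as a long noncoding RNA. The ventral sample was tissue from below the aorta and the dorsal sample tissue from between the aortic roof and the notochord, both cut by laser from the same C57Bl/6 embryos, for which the labels name no allele or treatment. The labels number each array as biological replicate 4, and there was 1 array per tissue, so the differences below carry no error and no p-value and were not replicated. A gene is called ventral-high where its measured ventral level was 2-fold or more above its dorsal level, and dorsal-high in the opposite case. The number of embryos is not stated in the labels. Stages after this one, which the design text names, were not analysed here.

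Protein synthesis begins when eIF2 brings the initiator tRNA to the small ribosomal subunit, helped by eIF1, eIF1A, eIF3 and eIF5. The complex is recruited to the capped end of the mRNA by eIF4F, made of the cap-binding eIF4E, the scaffold eIF4G and the helicase eIF4A, and scans to the start codon, where eIF5B joins the large subunit. eIF4E-binding proteins block this step until the kinase mTORC1 phosphorylates them, and kinases of eIF2α slow initiation under stress. During elongation eEF1A delivers aminoacyl-tRNAs, eEF2 moves the ribosome along, and eIF5A helps it past difficult peptide bonds.

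The arrays carry Affymetrix Mouse Gene 2.0 ST probes, and values are log2 expression levels, 1 per gene and array. They ran from 1.47 to 14.2 in ventral tissue and from 1.45 to 14.1 in dorsal tissue. A level under 3.92, the 95th percentile of both arrays' values for 1365 receptor genes of smell and pheromone sensing, is called background here, and a level between that and their 99th percentile, 5.48, is less certain. Of markers of cells beside each piece, 4 of 10 coelomic and gonadal ridge genes were ventral-high, among them Wt1 at 6.61 in ventral and 3.80 in dorsal tissue. Of 9 sclerotome genes 3 were dorsal-high, among them Pax9 at 4.02 in ventral and 6.15 in dorsal tissue. Pax1, a defining gene of the sclerotome, was at background on both arrays, at 3.20 in ventral and 3.73 in dorsal tissue, as was Foxa2 of the notochord, at 2.94 in ventral and 3.41 in dorsal tissue. Marker lists also differed for endothelium, with 3 of 7 genes ventral-high, and for smooth muscle, with 3 of 5. Of other markers, 2 of 3 notochord, 1 of 7 erythroid and 1 of 3 liver genes were dorsal-high, 1 of 4 neural genes was high in each tissue, and none of 6 macrophage genes was 2-fold apart. In these counts Emx2, Podxl, Kdr, Uncx and Noto passed 2-fold only through a lower value under background, their bounds over the mark being 1.92-fold, 1.38-fold, 1.88-fold, 1.34-fold and 1.25-fold. The part of these cells in the differences below was not tested. In tissue pieces such as these, fewer cells of a type and less RNA per cell cannot be told apart. Levels of different genes come from different probes, so each gene is compared between tissues only with itself.

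Of the 62 genes, 33 were above background on both arrays, 4 on 1 array and 25 on neither. The 4 ventral-high genes were Eef1e1, Eif4a2, Eif5 and Eif1ad. The 3 dorsal-high genes were Eif4ebp1, Eif4e3 and Eif4ebp2. The 7 genes together make 11.3% of the 62, beside 8.15% of all 24675 features. By direction, 5.36% of all features were ventral-high and 2.79% dorsal-high. Because most features lie near background, where differences are small (1.25% of the receptor genes were at least 2-fold apart), the share was also taken among features whose mean of both arrays reached 3.92. There the 7 genes were 20% of 35 translation factor genes, beside 25.8% of 5974 features (17.8% ventral-high and 8.02% dorsal-high). The share was therefore above the background over all features and below it over features of measurable level. The median difference, ventral minus dorsal, was 0.05 on the log2 scale over the 62 genes, against -0.11 over all features. Over those reaching 3.92 it was 0.21 for 35 translation factor genes and 0.05 for all features. Nearest to the 2-fold threshold among genes within it were Eif2b3, at a difference of 0.90 with both levels at background, Eif3k at -0.87 and Eif3i at 0.80. Nearest outside it were Eif4ebp2 at -1.24 and Eif1ad at 1.40.

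**Figure D1:**
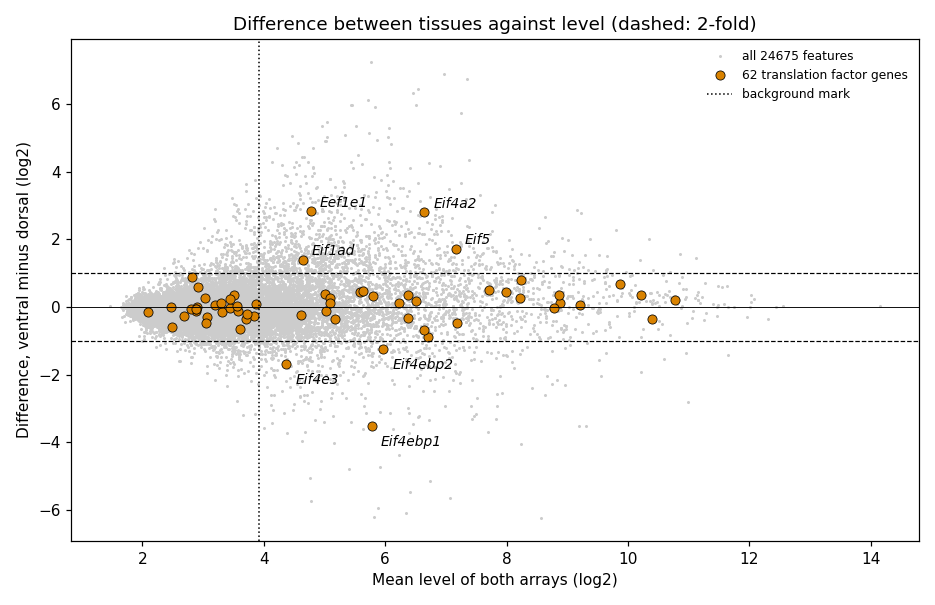
Difference between tissues (ventral minus dorsal, log2, vertical axis) against the mean level of both arrays (log2, horizontal axis) for all 24675 features (grey) and the 62 translation factor genes (orange). The dotted line is the background mark at 3.92 and the dashed lines mark 2-fold; the 7 named genes lie outside the dashed lines, 4 above and 3 below.

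RefSeq promoter sequences (GRCm38.p6) were found for 47 of the 62 genes, in 62 windows of 250 bases before to 50 after a transcription start. They are printed for 4 of the 7 genes at least 2-fold apart, 3 of them higher in ventral tissue and Eif4ebp2 in dorsal tissue, to show the sequence next to the start. No window was held for Eif4ebp1 or Eif4e3. Each sequence runs 5′ to 3′ on the gene's strand from 250 bases before the start to 20 after it, and capitals mark 3 short motifs. The first is the GC box GGGCGG, which Sp-family factors bind. The second is the CCAAT box, spelled as its name. The third is the core of the cAMP-response element, with the letters TGACGT. All were searched on both strands, and no matches overlap in these windows.
Eif4a2 (chr16:23107218-23107487, plus strand): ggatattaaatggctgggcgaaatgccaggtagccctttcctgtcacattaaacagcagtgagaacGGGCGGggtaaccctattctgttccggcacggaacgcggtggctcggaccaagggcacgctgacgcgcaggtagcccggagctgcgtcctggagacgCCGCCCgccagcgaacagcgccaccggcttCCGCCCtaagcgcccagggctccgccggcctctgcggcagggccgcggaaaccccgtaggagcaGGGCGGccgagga
Eif5 (chr12:111537851-111538120, plus strand): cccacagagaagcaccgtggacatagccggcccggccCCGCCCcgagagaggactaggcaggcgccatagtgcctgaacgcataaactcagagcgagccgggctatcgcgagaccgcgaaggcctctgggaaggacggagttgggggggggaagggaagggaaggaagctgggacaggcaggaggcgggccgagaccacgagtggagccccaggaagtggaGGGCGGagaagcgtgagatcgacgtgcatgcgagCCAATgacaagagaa
Eef1e1 (chr13:38659009-38659278, minus strand): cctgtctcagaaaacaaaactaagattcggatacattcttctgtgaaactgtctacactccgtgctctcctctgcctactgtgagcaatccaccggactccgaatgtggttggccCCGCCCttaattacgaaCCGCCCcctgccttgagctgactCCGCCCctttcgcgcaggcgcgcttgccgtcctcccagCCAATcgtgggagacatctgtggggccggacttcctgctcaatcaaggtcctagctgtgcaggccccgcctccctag
Eif4ebp2 (chr10:61452650-61452919, minus strand): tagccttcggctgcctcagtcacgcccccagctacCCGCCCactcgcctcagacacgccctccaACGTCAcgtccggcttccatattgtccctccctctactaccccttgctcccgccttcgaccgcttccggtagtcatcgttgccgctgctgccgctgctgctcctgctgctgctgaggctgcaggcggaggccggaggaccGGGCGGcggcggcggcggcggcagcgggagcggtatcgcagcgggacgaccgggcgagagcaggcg
The printed Eif4a2 window holds 4 GC boxes, that of Eef1e1 holds 3 with 1 CCAAT box, that of Eif5 holds 2 with 1 CCAAT box, and that of Eif4ebp2 holds 2 with 1 such core. A window was also held for ventral-high Eif1ad, which is not printed and holds 1 GC box. GC boxes were in 41 of the 62 windows, 66.1%, and in 35.7% of all 32851 promoter windows in the reference, which also cover noncoding genes. Windows of the same gene can overlap, so they are not independent. These are matches of letters and not shown to be bound.

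Of the 62 genes, the one with the greatest excess in dorsal tissue acts on the cap-binding step. Eif4ebp1, which encodes the mTORC1-controlled repressor 4E-BP1, was at 4.01 in ventral and 7.54 in dorsal tissue. The difference of -3.52 on the log2 scale is an 11.5-fold excess in dorsal tissue, with the ventral level just above background. Eif4ebp2, its paralog, was at 5.35 in ventral and 6.59 in dorsal tissue, 2.35-fold higher in dorsal tissue. Both genes lay on the same side, and the difference of Eif4ebp1 minus that of Eif4ebp2 was -2.29. The third paralog, Eif4ebp3, was at background on both arrays, at 3.53 in ventral and 3.88 in dorsal tissue. Eif4enif1, which encodes 4E-T, a protein that carries eIF4E into the nucleus and binds it in cytoplasmic granules, was within 2-fold, at 5.96 in ventral and 5.64 in dorsal tissue.

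The cap-binding proteins themselves gave little signal. Eif4e, the main cap-binding protein, was at background on both arrays, at 3.23 in ventral and 3.17 in dorsal tissue, and so was Eif4e2, which encodes the translational repressor 4EHP, at 3.58 in ventral and 3.54 in dorsal tissue. At this signal no difference could be seen in either gene. Whether their features read these genes well was not tested, so the levels do not show that the genes are silent. Eif4e3, a cap-binding paralog, was at 3.52 in ventral tissue, under background, and at 5.22 in dorsal tissue, a dorsal excess of at least 2.47-fold. Its dorsal level lay under the receptor genes' 99th percentile. Eif4e1b, the oocyte paralog, was at background at 2.77 in ventral and 2.83 in dorsal tissue.

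Among the helicases of the scanning step, Eif4a2 stood out in ventral tissue. Eif4a2, a paralog of the main helicase gene, was at 8.05 in ventral and 5.25 in dorsal tissue, 6.96-fold higher in ventral tissue. Eif4a1 was at 2.46 on both arrays, equal to the last printed decimal, which held for 36 of all features. That level is background, so the paralogs cannot be set against each other. Why the Eif4a1 feature gave this level was not tested, so it does not show that the gene is silent. Eif4a3, the helicase of the exon junction complex, was at 3.51 in ventral and 3.63 in dorsal tissue, and its close relative Eif4a3l1 at 2.02 in ventral and 2.16 in dorsal tissue, both at background.

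The scaffolds and cofactors of eIF4F were within 2-fold and mostly well above background. Eif4g2, which encodes the eIF4G-like DAP5 used in cap-independent initiation, was at 10.40 in ventral and 10.04 in dorsal tissue. Eif4g3 was at 6.59 in ventral and 6.41 in dorsal tissue, while Eif4g1 was not analysed here. Eif4b, a stimulator of the helicase, was at 8.36 in ventral and 8.10 in dorsal tissue. Its functional relative Eif4h lay the other way, at 6.31 in ventral and 6.98 in dorsal tissue. Of the 12 genes of eIF4F and its partners, 1 was ventral-high, 1 was dorsal-high and the median difference was 0.02. These make 16.7%, beside 8.15% of all features and 25.8% of those with a mean of at least 3.92. The median includes 6 genes at background on both arrays.

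**Figure D2:**
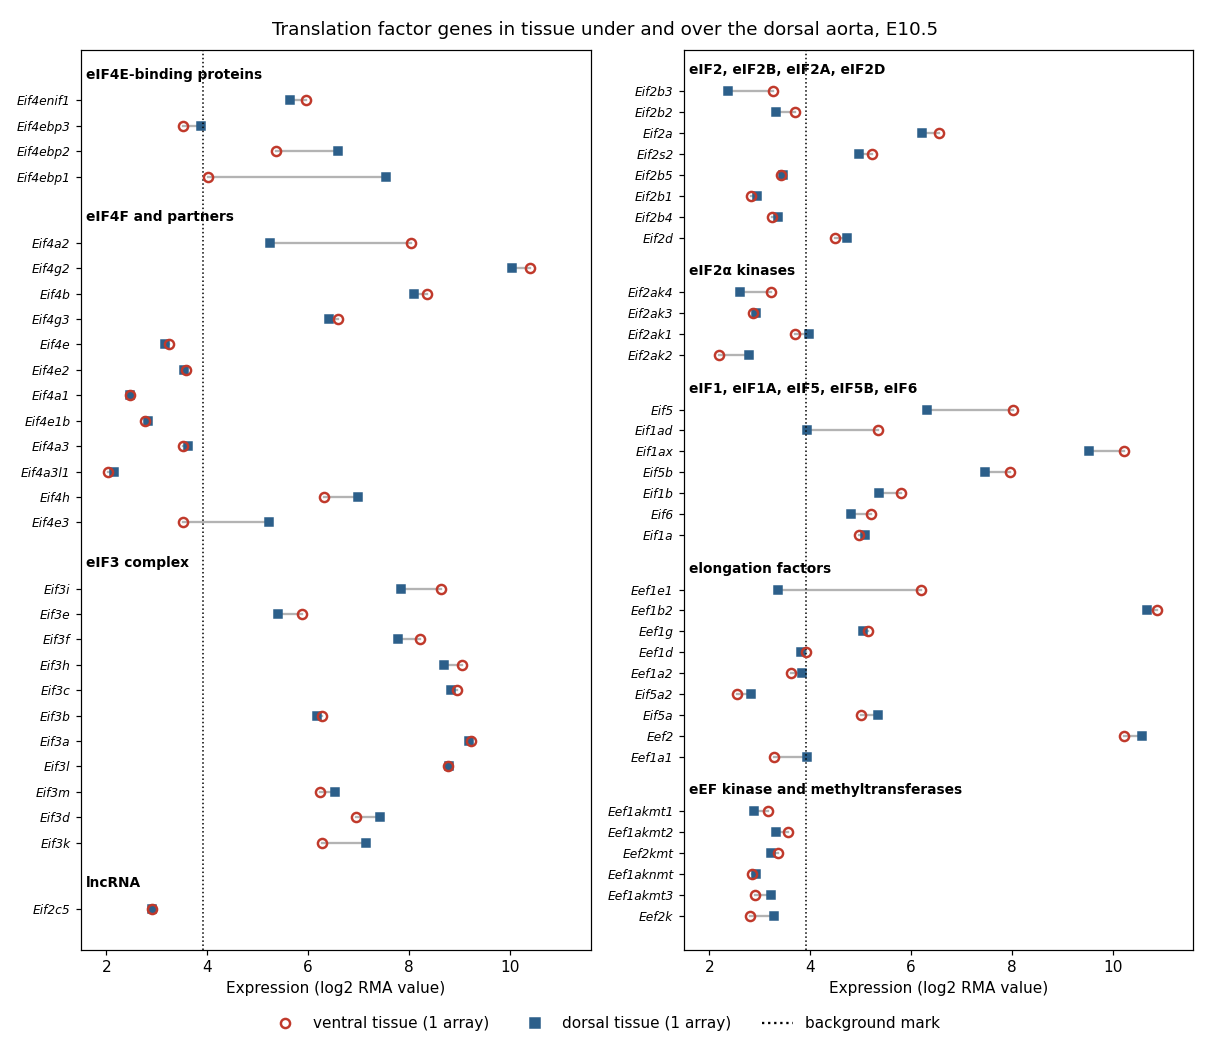
Level of each of the 62 genes in ventral tissue (red circles) and dorsal tissue (blue squares), 1 array each, in log2 RMA units on the horizontal axis, with genes grouped by role down the page. The dotted line is the background mark at 3.92; Eif4ebp1, Eif4a2 and Eef1e1 have the widest gaps, and the 11 eIF3 genes have narrow ones.

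The eIF3 complex, the scaffold that holds the small ribosomal subunit and the initiation factors together, differed little between the tissues. All 11 measured subunit genes were above background on both arrays and none was at least 2-fold apart. Beside this, 8.15% of all features and 25.8% of those with a mean of at least 3.92 were at least 2-fold apart. Differences ran from -0.87 to 0.80, 7 higher in ventral and 4 higher in dorsal tissue, with a median of 0.11, whose sign turned after quantile normalization of the columns, at -0.14, and after a loess on level, at -0.15. Eif3a, the subunit that nucleates the complex, was at 9.23 in ventral and 9.19 in dorsal tissue. Eif3c, which with Eif3a forms the core, was at 8.95 in ventral and 8.83 in dorsal tissue, and Eif3l was at 8.77 in ventral and 8.80 in dorsal tissue. The differences of these 3 subunits were 0.05, 0.12 and -0.03 on the log2 scale. Eif3e was at 5.88 in ventral and 5.40 in dorsal tissue, and Eif3i, a subunit of the part that includes Eif3b, was at 8.63 in ventral and 7.83 in dorsal tissue. Eif3k, a peripheral subunit, was at 6.26 in ventral and 7.14 in dorsal tissue. Eif3k passed 2-fold in dorsal tissue after quantile normalization of the columns, at -1.17, and after a loess on level, at -1.04. The differences of Eif3b, Eif3d, Eif3f, Eif3h and Eif3m ran from -0.48 in Eif3d to 0.44 in Eif3f.

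Genes of the eIF2 step were mostly at background. Eif2s2, which encodes the β subunit of eIF2, was at 5.23 in ventral and 4.96 in dorsal tissue, while the genes of the other two subunits were not analysed here. All 5 genes of eIF2B, the factor that reloads eIF2 with GTP, were at background on both arrays. Eif2b5, its catalytic subunit, was at 3.43 in ventral and 3.46 in dorsal tissue, and Eif2b3 was at 3.27 in ventral and 2.37 in dorsal tissue. Eif2a, which encodes an initiator-tRNA-binding protein distinct from eIF2α, was at 6.55 in ventral and 6.21 in dorsal tissue, and Eif2d, a factor of alternative initiation and recycling, at 4.48 in ventral and 4.73 in dorsal tissue. None of these 8 genes was at least 2-fold apart, beside 8.15% of all features.

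The eIF2α kinases were also near background. Eif2ak1, the heme-regulated kinase, was at 3.70 in ventral and 3.97 in dorsal tissue, the dorsal level just above background. Eif2ak2, the kinase PKR that double-stranded RNA activates, was at 2.19 in ventral and 2.79 in dorsal tissue. Eif2ak3, the endoplasmic reticulum kinase PERK, was at 2.86 in ventral and 2.92 in dorsal tissue, and Eif2ak4, the amino acid sensor GCN2, at 3.22 in ventral and 2.62 in dorsal tissue. At this signal no difference could be seen. Genes that act after eIF2α phosphorylation were likewise within 2-fold in all 11 cases, beside 8.15% of all features at least 2-fold apart. Of the 11, however, 5 were at background on both arrays and 1 was above it on only 1 array. Atf4, the transcription factor whose translation rises in that response, was at 6.74 in ventral and 6.58 in dorsal tissue, and Ddit3, its proapoptotic target, at 4.78 in ventral and 4.36 in dorsal tissue.

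Of 7 genes grouped under start-codon choice and subunit joining, all above background on both arrays, 6 had a higher value in ventral tissue. The group includes Eif1ad, a ventral-high gene that is not itself a factor of these steps. The 2 ventral-high genes stand beside 17.8% of features with a mean of at least 3.92, and a count of 2 in 7 is near that share. The median difference was 0.50, which was 0.23 after quantile normalization and 0.38 after a loess on level. Eif5, the GTPase activator that triggers release of eIF2 at the start codon, was at 8.03 in ventral and 6.31 in dorsal tissue, 3.29-fold higher in ventral tissue. Eif1ad, an eIF1A-domain protein of small-subunit maturation, was at 5.34 in ventral and 3.94 in dorsal tissue, 2.63-fold higher in ventral tissue, both levels under the receptor genes' 99th percentile. Eif1ax, the X-linked eIF1A, was at 10.22 in ventral and 9.53 in dorsal tissue, and its paralog Eif1a at 4.97 in ventral and 5.08 in dorsal tissue. Eif5b was at 7.97 in ventral and 7.47 in dorsal tissue, Eif1b, the paralog of the start-codon fidelity factor Eif1, at 5.80 in ventral and 5.36 in dorsal tissue, and Eif6, which keeps the large subunit from joining too early, at 5.20 in ventral and 4.81 in dorsal tissue. The median difference of all features was 0.05 where the mean was at least 3.92, as in all 7 of these genes, and 0.23 where it was at least 5.48, as in 4 of them.

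Of 9 genes grouped as elongation factors, 1 was at least 2-fold apart, beside 8.15% of all features. Eef1e1, named as an elongation factor but encoding AIMP3, a scaffold of the multi-tRNA-synthetase complex, was at 6.19 in ventral tissue and at 3.36, background, in dorsal tissue. The ventral excess is at least 4.84-fold. Eef2, the translocase, was at 10.22 in ventral and 10.58 in dorsal tissue. Eef1b2, the nucleotide exchange subunit of the eEF1 complex, was at 10.89 in ventral and 10.68 in dorsal tissue, and Eef1g, its γ subunit, at 5.15 in ventral and 5.04 in dorsal tissue. Eef1d, the δ subunit, was at background at 3.91 in ventral and 3.83 in dorsal tissue. Eef1a1, which delivers aminoacyl-tRNAs in nearly all embryonic cells, was at 3.28 in ventral and 3.94 in dorsal tissue, at or near background, and Eef1a2, the paralog of neurons and muscle, was at 3.62 in ventral and 3.83 in dorsal tissue. Why the feature for so widely used a gene gave this level was not tested, and many processed copies of Eef1a1 exist, so its value is uncertain. Eif5a was at 5.0 in ventral and 5.35 in dorsal tissue, and Eif5a2 was at background at 2.54 in ventral and 2.82 in dorsal tissue. The kinase of eEF2, Eef2k, at 2.81 in ventral and 3.27 in dorsal tissue, and all 5 methyltransferase genes of elongation factors were at background on both arrays, with differences from -0.46 to 0.28. Among the methyltransferase genes, Eef1akmt2 was at 3.57 in ventral and 3.32 in dorsal tissue, and Eef1aknmt was at 2.85 in ventral and 2.92 in dorsal tissue. The noncoding Eif2c5 was at background too, at 2.89 in ventral and 2.90 in dorsal tissue.

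The Myc-type E-box, CACGTG, was searched on both strands of the same windows because Myc and related factors bind it and many translation genes are known Myc targets. It was in 14 of 62 windows, 22.6%, and in 7.15% of all 32851 windows, which also cover noncoding genes. Windows of the same gene can overlap and are not independent, and the same Eif5a site was counted in more than 1. Binding by Myc was not tested. The 14 windows with the motif belong to 12 genes, and these had a median difference of -0.17, with 5 of them at background on both arrays. None was at least 2-fold apart, beside 8.15% of all features, and none in 12 is near that share. Eif3k passed 2-fold after quantile normalization, at -1.17, and after a loess on level, at -1.04. The 35 other genes with a window had a median difference of 0.11, with 4 ventral-high, 1 dorsal-high and 14 at background on both arrays. Genes without a window, among them the dorsal-high Eif4ebp1 and Eif4e3, are in neither set, so the sets do not describe all 62 genes. The letters around the motif, in capitals, are shown for 4 genes above background on both arrays, each within 2-fold between the tissues.
Eef2 (chr10:81176576-81176605, plus strand): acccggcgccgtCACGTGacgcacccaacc
Eif3f (chr7:108934335-108934364, plus strand): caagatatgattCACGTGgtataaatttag
Eif3k (chr7:28981915-28981944, minus strand): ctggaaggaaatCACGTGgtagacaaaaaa
Eif4h (chr5:134639488-134639517, minus strand): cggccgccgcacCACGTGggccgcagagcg
The motif ended 37 bases before the start in Eef2, 38 in Eif3k, 62 in Eif3f and 90 in Eif4h. The composite element bound by Atf4, TGATGNAA, was in 1 of 62 windows, that of Eef2k, and in 3.97% of all windows.

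Genes that act on the translation factors or in other steps of translation were described from 7 further lists. Beside the counts in them, 8.15% of all features and 25.8% of those with a mean of at least 3.92 were at least 2-fold apart. Of 13 measured genes of mTORC1 and its translation targets, 2 were ventral-high and 1 dorsal-high, together 23.1%, with a median difference of 0.29. Of the 13, 4 were at background on both arrays and 4 were above it on only 1 array. Mlst8, a core mTORC1 subunit, was at 4.61 in ventral and 6.37 in dorsal tissue, 3.40-fold higher in dorsal tissue, the same side as Eif4ebp1. Rps6kb2, an S6 kinase, was at 5.94 in ventral and 4.50 in dorsal tissue, 2.72-fold higher in ventral tissue. Pdcd4, which binds and blocks eIF4A, was at 4.92 in ventral and 3.56 in dorsal tissue, with a ventral excess of at least 2.0-fold. Mtor itself was at 4.29 in ventral tissue and at 3.63, background, in dorsal tissue.

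The other lists each held genes on both sides or few genes apart. Of 21 measured cytosolic tRNA synthetases and scaffold genes, 2 were ventral-high and 2 dorsal-high. Aimp2, which encodes a scaffold of the same complex as Eef1e1, was at 4.33 in ventral and 7.93 in dorsal tissue, 12.1-fold higher in dorsal tissue. Aimp1, the third scaffold, was at 4.55 in ventral and 4.16 in dorsal tissue. The 3 scaffold genes thus did not lie on 1 side. Tars was 2.67-fold higher in dorsal tissue, and Gars and Lars were 2.15-fold and 2.04-fold higher in ventral tissue.

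Of 8 genes of poly(A)-binding proteins and helper helicases, Pabpc4, a cytoplasmic poly(A)-binding protein, was at 9.82 in ventral and 11.36 in dorsal tissue, 2.90-fold higher in dorsal tissue. Paip2, which displaces poly(A)-binding protein and so lowers translation, was at 7.15 in ventral and 5.90 in dorsal tissue, 2.37-fold higher in ventral tissue. Pabpc1, the main poly(A)-binding protein, was within 2-fold, at 11.34 in ventral and 11.59 in dorsal tissue.

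Of 9 genes of termination and recycling, Abce1, the ATPase that splits ribosomes after termination, was at 7.88 in ventral and 6.40 in dorsal tissue, 2.81-fold higher in ventral tissue. Mcts2, a recycling factor, was at 5.72 in ventral and 7.13 in dorsal tissue, 2.67-fold higher in dorsal tissue, and probes for it may also read its parent gene Mcts1. The other 7, with Etf1 and Gspt1 of the release factor, were within 2-fold. Of 7 mitochondrial factors, Gfm1, a mitochondrial elongation factor, was 2.57-fold higher in ventral tissue and Tufm, the mitochondrial EF-Tu, 2.03-fold higher in dorsal tissue. Of 9 enzymes that modify eIF5A and eEF2, 8 were within 2-fold. Dph6 was at 3.27, background, in ventral and 4.67 in dorsal tissue, and its dorsal excess of at least 1.68-fold over the background mark does not reach 2-fold.

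**Figure D3:**
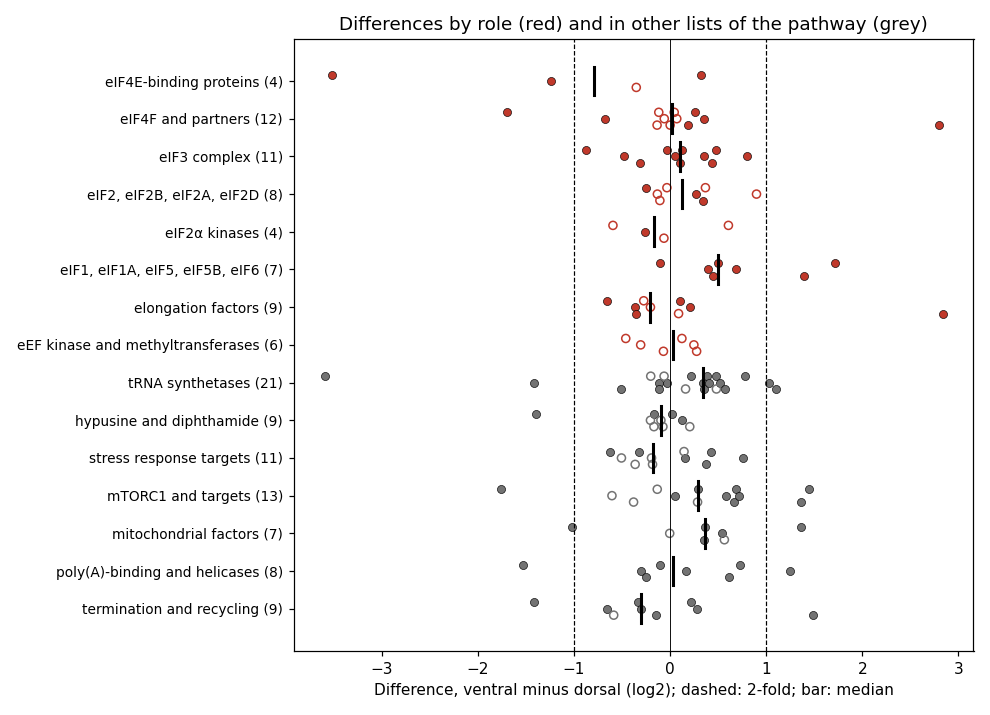
Difference between tissues (ventral minus dorsal, log2, horizontal axis) for each gene, by role of the translation factors (red) and in the other lists of the pathway (grey), with the number of genes in brackets. Filled points reached the background mark on at least 1 array, bars are medians and dashed lines mark 2-fold. The eIF3 points all lie between the dashed lines. Of the 4 eIF4E-binding protein points 2 lie left of them, beside 2.79% of all features and 8.02% of those with a mean of at least 3.92.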

How the data were processed

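The deposited values are on the log2 scale, with a single value for each gene on each array. The authors made them with Affymetrix Expression Console and RMA, per the submitters' processing notes. Per the labels' protocols, 200 to 1000 pg of RNA from 20 µm sections was amplified before hybridisation, a step that adds random gains and losses of transcripts. No genome build or probe annotation of the array values is stated there. Of 25429 features, 24675 had 1 symbol, taken from the gene number, and 754 none. All 24675 symbols were the same, by gene number, in a RefSeq table of GRCm38.p6. Because the same number was looked up, this checks the naming only and not what the probes read. Differences are ventral minus dorsal. With 1 array per tissue no test was made, genes were counted at 2-fold, and the number of arrays limits precision. Counts were taken without a floor, since one on the higher array favours genes with a gap. A floor on the mean, used for the second share, can favour them too. Where the lower level was under the receptor genes' 95th percentile, the fold is a bound against it. Named with values were genes at least 2-fold apart, the extremes of level in each role and a set of central factors and paralogs; other genes, such as Eif3c, Eif3i, Eif4g3, Mtor, Aimp1, Pabpc1, Atf4 and Ddit3, were added after their values were seen. The members, lists and roles were chosen with earlier results of these data known. Proteins of the paralogs were not used here. The counting, quantile and loess steps were tested on simulated data. Alternatives were quantile normalization, centring, a loess (span 0.3), floors on mean level, 1.5-fold and 3-fold thresholds, the mean, and the classical factors alone. Software was matplotlib 3.10.9, statsmodels 0.14.6, pandas 2.3.3 and numpy 2.4.6 under Python 3.11.15.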

Additional observations from a re-analysis of the deposited data

How the results depend on the processing

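With 1 array per tissue, no alternative measures error, and differences near background are limited by signal. All 7 genes at least 2-fold apart stayed so, in the same direction, under quantile normalization, centring on the median of all features and a loess on level. Eif4ebp1 ran from -3.66 to -3.42 there and Eif4a2 from 2.54 to 2.91. Eif3k passed 2-fold in dorsal tissue after quantile normalization and loess, and Eif2b3, at background, passed it in ventral tissue after centring, at 1.01, and loess, at 1.04. The counts in ventral and dorsal tissue were 8 and 7 at 1.5-fold, 3 and 2 at 3-fold, 2 and 2 for the 26 genes with a mean of at least 5.48, and 2 and 1 for the 45 genes that are classical factors. For those 45 genes the kinases, binding proteins, methyltransferases, Eif1ad, Eef1e1 and Eif2c5 were left out, a sorting made after their values were seen. The median difference of all 62 genes, 0.05, was 0.02 after quantile normalization, 0.06 after a loess, 0.15 after centring, 0.21 for genes with a mean of at least 3.92 and 0.23 for those with at least 5.48. No paired analysis was possible because the tissues share only 1 replicate number.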
